A study of Rattus norvegicus with 4 samples.

Results

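The genes described here cut proteins into peptides and load them onto class I major histocompatibility complex molecules. They are Tap1, Tap2, Tapbp, B2m, RT1-A2, Psmb8, Psmb9, Psmb10, Psme1 and Psme2, chosen by symbol as 10 of the 13813 genes that had a probe set naming only that gene on either array design. All 13 single-gene probe sets of these genes were taken. The day 1 array design carried 9 of the genes on 11 probe sets, and the day 3 design carried 2 of them, Psme1 and RT1-A2, on 2 probe sets.

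The arrays measured RNA of the rat cochlear lateral wall after 3-nitropropionic acid (3-NP), which blocks mitochondrial complex II, or after saline. Female Sprague-Dawley rats, 8 to 10 weeks old and 180 to 210 g in weight, received 300 mM 3-NP or saline alone at the left round window niche, and tissue was taken at day 1 or day 3. In both treatments the right cochlea had been destroyed by surgery, and the labels name no transgene or mutant allele. The 4 groups (saline day 1, 3-NP day 1, saline day 3, 3-NP day 3) had 1 array each, so the differences have no replicate check and carry no p-value. The labels describe the piece of tissue in more than one way, as the upper basal turn and as the second turn with the stria vascularis removed. How many animals were pooled for an array, if any, is not stated in these sources.

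In most cells the proteasome is a barrel whose cutting sites are the standard subunits Psmb5, Psmb6 and Psmb7. Interferon-gamma induces the replacement subunits Psmb8, Psmb9 and Psmb10, which assemble into the immunoproteasome, and the PA28 activator made of Psme1 and Psme2. The resulting peptides are carried into the endoplasmic reticulum by the Tap1 and Tap2 transporter, and tapasin, the product of Tapbp, helps to place them on a class I heavy chain paired with the light chain B2m. The loaded complex is displayed to CD8 T cells. The lateral wall is built mainly of spiral ligament fibrocytes, which return potassium towards the endolymph.

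Values are MAS5 signals on a linear scale. The median signal was 44.9 after saline and 60.7 after 3-NP at day 1, with 18.7 and 19.97 at day 3, so log2 ratios of 3-NP over saline are given relative to the median measured gene of the day, which lay at 0.44 at day 1 and 0.10 at day 3 as deposited. A probe set counts as measured when its signal was no lower than the median signal in 1 or both arrays of a day, which left 6533 genes at day 1 and 3974 at day 3. Signals below the 30th percentile of an array were raised to that floor, at 17.1 and 22.04 for saline and 3-NP at day 1 and at 9.22 and 9.85 at day 3. A difference counted from 2-fold upwards. The technical spread of a log2 ratio, taken between probe sets of one gene, was 0.35 (SD, 744 genes) at day 1 and 0.47 (SD, 803 genes) at day 3, and does not cover animals or dissection. Of the defining fibrocyte markers, Gjb6 had 3139 after saline and 761 after 3-NP at day 1, and Coch had 6548 and 5677 at day 3. Of the strial and melanocyte markers, 5 of 6 at day 1 and 3 of 4 at day 3 reached the median signal in saline, although one label says that the stria was left out. The exceptions were Kcnj10, at 11.6 after saline, and Tyrp1, with probe sets at 4.62 and 13.1.

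Promoter stretches are shown first because these genes differ in whether an exact match to a short core motif lies near their start. The motif is a core of the interferon-stimulated response element (ISRE), the element bound by interferon regulatory factors. The core was searched on both strands as GAAA, any 2 bases, GAAA, in the RefSeq promoters of the GRCr8 assembly, each running from 250 bases before the start to 50 after it. It was found in 7 of the 10 genes and in 0 of the 3 standard subunits Psmb5, Psmb6 and Psmb7. Among all 33469 promoters of that length, 1312 held it, which is 3.92%. In the stretches of those 7 genes, written 5′ to 3′ on the strand of the gene, capitals mark the core.
Tap1: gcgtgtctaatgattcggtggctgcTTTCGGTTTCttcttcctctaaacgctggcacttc
Tap2: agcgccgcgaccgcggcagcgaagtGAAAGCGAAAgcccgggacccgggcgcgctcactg
Tapbp: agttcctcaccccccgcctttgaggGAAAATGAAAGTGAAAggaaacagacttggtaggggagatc
B2m: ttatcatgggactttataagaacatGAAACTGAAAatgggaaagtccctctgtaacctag
Psmb8: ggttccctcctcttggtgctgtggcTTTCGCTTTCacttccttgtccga
Psmb10: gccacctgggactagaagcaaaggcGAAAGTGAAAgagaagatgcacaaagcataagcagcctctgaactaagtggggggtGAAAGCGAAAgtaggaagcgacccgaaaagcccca
Psme2: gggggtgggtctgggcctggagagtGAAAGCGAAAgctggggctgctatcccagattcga

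In GRCr8 the stretches lie at chr20:4668630-4668689 for Tap1, chr20:4652303-4652362 for Tap2, chr20:4967863-4967928 for Tapbp, chr20:4657012-4657060 for Psmb8, chr19:50743275-50743390 for Psmb10 and chr15:33052770-33052829 for Psme2, all on the minus strand, and at chr3:129549155-129549214 on the plus strand for B2m. In Tap1 and Psmb8 the core reads on the other strand, so it appears as its reverse complement. Counted from the start, the core of Tap2 covers bases -41 to -32 and that of Psme2 bases -53 to -44. B2m has its core further out, at -150 to -141, and Tap1 at -121 to -112. Psmb10 holds separate cores at -73 to -64 and -17 to -8, while the pair in Tapbp, at -26 to -17 and -20 to -11, share bases. The core of Psmb8 runs across its annotated start.

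Psmb9, Psme1 and RT1-A2 had no match to these letters in their windows. Forms of the element with other letters, or crossing the edge of a window, were not searched. No match therefore does not mean that a gene lacks the element. Tap1 and Psmb9 are divergent neighbours with 456 bases between their starts. The match of Tap1 therefore also lies 336 to 345 bases upstream of Psmb9, outside the window searched for Psmb9. A gamma-activated site (GAS), searched as TTCNNNGAA, was present in 1 of the 10 genes, Psmb8, and in 8.87% of all promoters. A loose NF-kappaB motif, GGG and CC with any 5 bases between them, was present in 7 of the 10 genes and in 47.3% of all promoters. None of the 9 ISRE matches overlapped a match to either of the other motifs. A match describes letters and was not measured as a bound site.

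**Figure D1:**
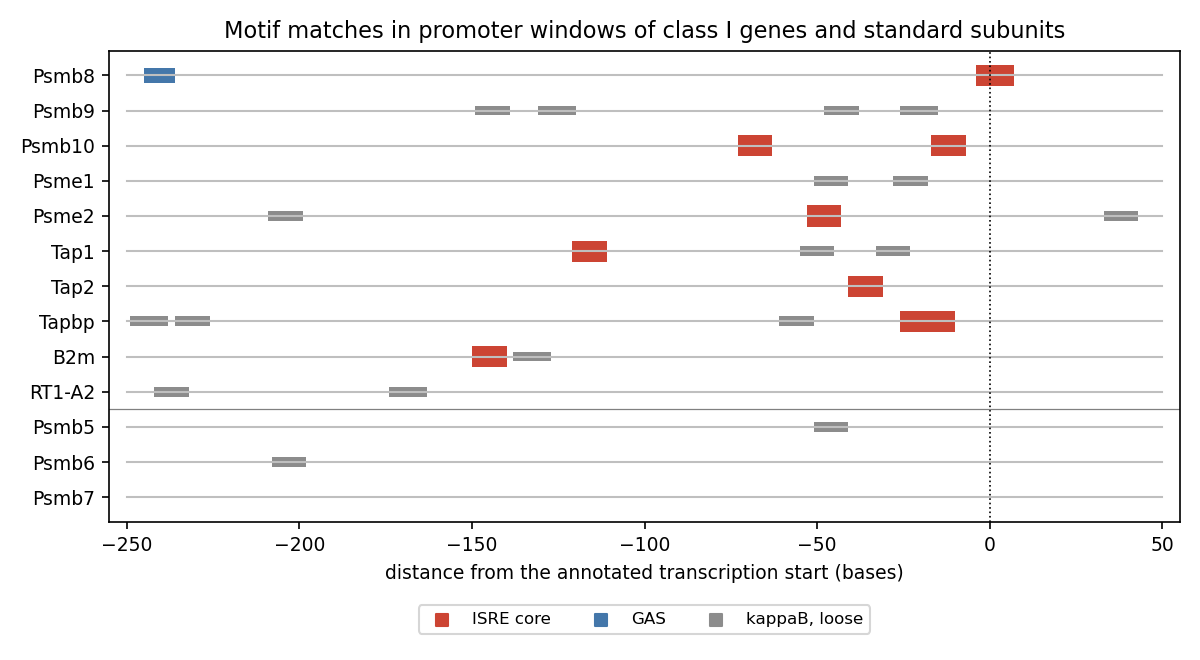
Position of motif matches (bases from the RefSeq start, x axis) in the promoter of each of the 10 class I genes and of the 3 standard catalytic subunits; each mark is 1 match to the ISRE core, the GAS motif or the loose NF-kappaB motif on either strand. ISRE marks appear in 7 of the 10 class I genes and in 0 of the 3 standard subunits.

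At day 1, signals of all 9 class I genes on the array were higher in the 3-NP array than in the saline array and lay above the median gene. Relative to the median gene 7 of the 9 were at least 2-fold higher and 0 were lower, with a median log2 ratio of 2.01 (range 0.65 to 3.18). Among all measured genes 507, or 7.76%, were at least 2-fold higher, 423, or 6.47%, were at least 2-fold lower, and the median was 0 by construction. As deposited, 9 of the 9 genes and 17.9% of all measured genes were at least 2-fold higher (1169 higher against 171 lower over all genes). Tap2 and Tapbp passed the filter through the 3-NP array alone, which favours a higher ratio. Of the 7 genes that reached it in saline as well, 5 were at least 2-fold higher, against 4.43% of all genes that did so. In tissue of this kind, a difference in the number of cells of a type and a difference in RNA per cell cannot be told apart.

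**Figure D2:**
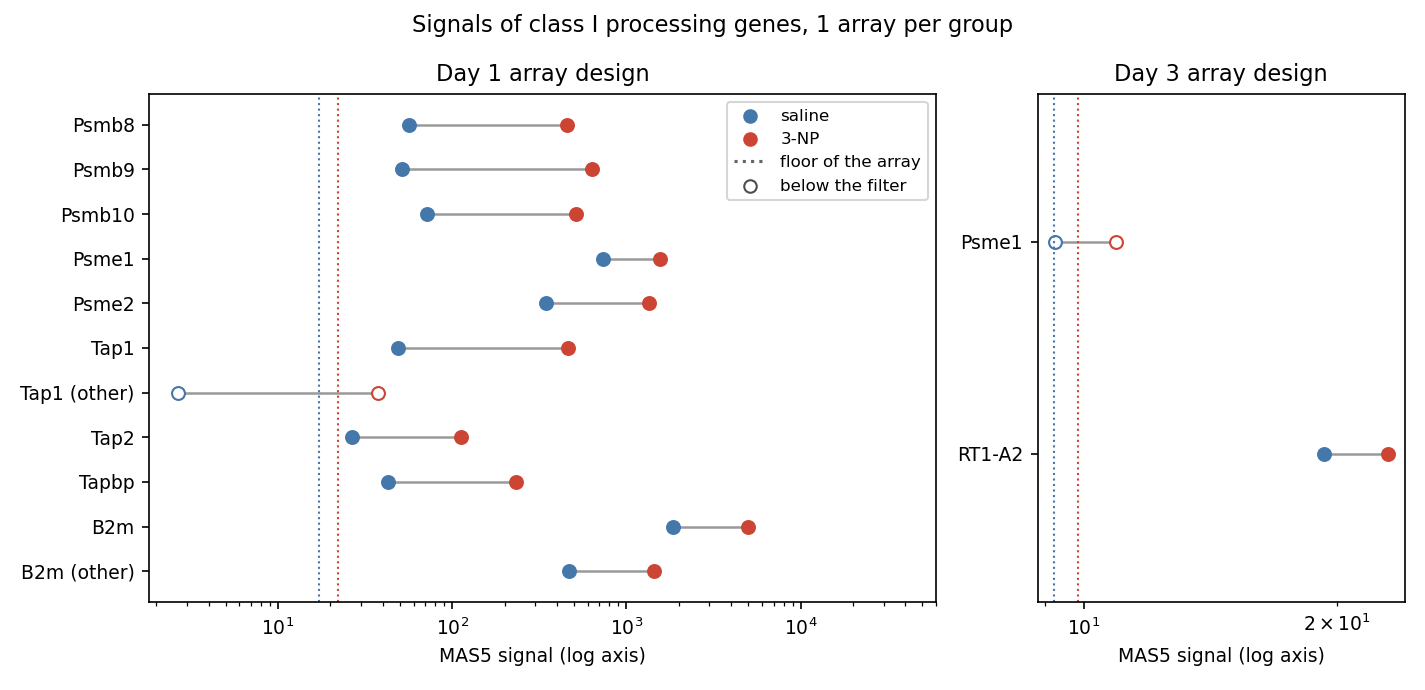
MAS5 signal (x axis, log scale) of every probe set of the class I genes in the saline (blue) and 3-NP (red) arrays, with day 1 on the left and day 3 on the right. Dotted lines mark the floor of each array, open circles mark probe sets below the filter, and at day 1 each red point lies to the right of its blue point.

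The inducible catalytic subunits had some of the highest ratios of the day 1 arrays. Psmb9, which replaces Psmb6, had a signal of 51.3 after saline and 631 after 3-NP, which is 9.08-fold higher relative to the median gene (log2 ratio 3.18), at rank 34 of 6533. Psmb8, which replaces Psmb5, went from 56.7 in saline to 454 in 3-NP, a 5.91-fold relative difference at rank 59. Psmb10, which replaces Psmb7, had 72.0 and 517, a 5.30-fold relative difference at rank 76. All of them were near the array median in saline and far above it in 3-NP.

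The standard subunits that these replace were measured on the same arrays. Psmb5 had 820 after saline and 1537 after 3-NP, a relative log2 ratio of 0.47. Psmb7 had 589 and 1035, a ratio of 0.37. Between an inducible subunit and its standard counterpart, the log2 ratio differed by 2.09 for Psmb8 against Psmb5, which is 4.27-fold, and by 2.03 for Psmb10 against Psmb7, which is 4.09-fold. Both differences were several times the technical spread of 0.35. That spread is for a single ratio, and a difference between ratios has a larger one. The third standard subunit, Psmb6, shares its only day 1 probe set with the related Psmb6l1, which had 381 and 722 and a relative ratio of 0.48.

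The rest of the proteasome stood close to the standard subunits. Of 11 other subunits of the 20S core, which form the barrel itself, 0 were at least 2-fold higher or lower, and their ratios ran from 0.21 to 0.84 with a median of 0.40. The highest was Psma3, with 76.5 after saline and 185 after 3-NP. The 19S regulatory particle, the cap that recognises ubiquitin-tagged proteins and unfolds them, had 18 measured genes and 0 past 2-fold, with a median of 0.47 and Psmd3 highest at 0.78 (71.0 and 165). Other activators and assembly factors had 7 measured genes, 0 past 2-fold and a median of 0.25, with the proteasome inhibitor gene Psmf1 highest at 0.56. Psme3, also on this list, shares its day 1 probe sets with Aoc3 and G6pc1 and so entered no gene. Its measured probe sets were at 0.81 (142 and 336) and 0.58 (130 and 264), both above Psmf1, and the rest were below the filter. As deposited, without centring, 2 of the 20S genes, 5 of the 19S genes and 1 of the activator and assembly genes were at least 2-fold higher, so these counts rest on the centring.

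The PA28 subunits differed from each other. Psme2, which encodes the beta subunit, had 344 after saline and 1356 after 3-NP, a 2.91-fold relative difference (log2 ratio 1.54) at rank 217. Psme1, which encodes the alpha subunit, had 734 and 1564, a 1.57-fold relative difference (0.65) at rank 971. Psme1 thus had the lowest ratio of the 9 genes. It lay above the median of the 19S genes but within the range of the other 20S core subunits, 0.21 to 0.84. It was at least 2-fold higher only as deposited, under 1 of the 10 other settings tried.

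Among the transport and loading genes, Tap1 had the highest ratio. Its brighter probe set, with 48.9 after saline and 462 after 3-NP, gave a 6.96-fold relative difference (log2 ratio 2.80) at rank 49. The other Tap1 probe set had 2.66 in saline, below the floor, and 37.4 in 3-NP, which was below the filter. That probe set gives a bound of at least 1.61-fold, in the same direction. Tap2, the other transporter chain, had 26.5 and 113, a 3.13-fold relative difference at rank 194. Tapbp had 42.6 and 232, a 4.01-fold relative difference at rank 122. Tap2 and Tapbp were below the array median in saline and well above it in 3-NP.

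B2m was a bright gene in both arrays. Its brighter probe set had 1856 after saline and 4961 after 3-NP, a 1.97-fold relative difference (log2 ratio 0.98) at rank 527, just under the 2-fold mark. The other B2m probe set had 471 and 1442, a 2.26-fold relative difference. The log2 ratios of these probe sets differ by 0.20, less than the technical spread. B2m was therefore on either side of 2-fold according to the probe set and scaling, and reached it under 4 of the 10 other settings.

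**Figure D3:**
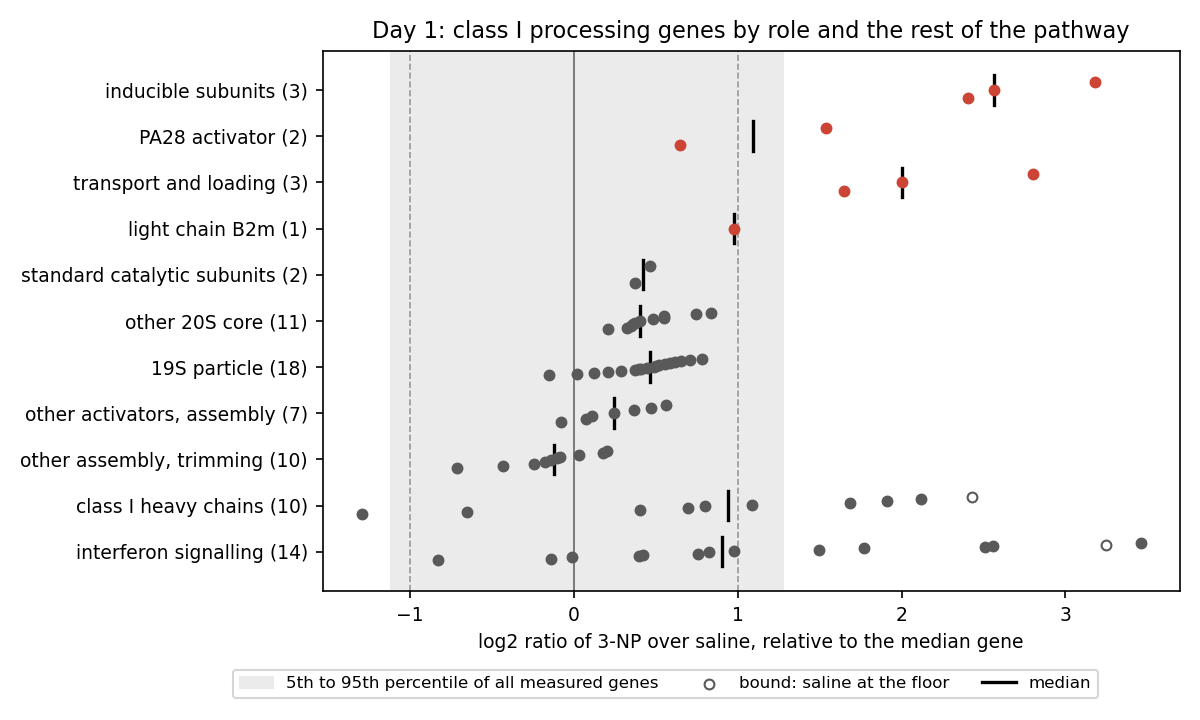
Day 1 log2 ratio of 3-NP over saline relative to the median gene (x axis) for the class I genes by role (red) and for the measured genes of the other lists (grey), 1 point per gene with the number of genes in brackets. Black bars are list medians, dashed lines mark 2-fold, open circles are bounds with saline at the floor, and the shaded band spans the 5th to 95th percentile of all measured genes (-1.11 to 1.28); 7 of the 9 red points lie above the band.

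The heavy chain RT1-A2 had no probe set of its own at day 1. A probe set annotated to both RT1-A3 and RT1-A2 had 281 after saline and 1008 after 3-NP, a relative log2 ratio of 1.41, and another, annotated to RT1-A with RT1-CE11 and others, had 18.6 and 145, a ratio of 2.53. Many rat class I heavy chains are near-identical copies, so the gene behind each RT1 signal is uncertain. Of 10 other measured class I and class I-like heavy chain genes, 5 were at least 2-fold higher and 1 lower, with a median of 0.94 (0.48 over all 17 genes of the list, with no filter). Of the 9 that reached the filter in saline, 4 were higher. This list also contains class I-like proteins that present no peptides to CD8 T cells.

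RT1-CE12 had 382 after saline and 1947 after 3-NP, a relative log2 ratio of 1.91. RT1-CE10 had 104 and 452 (1.68), RT1-T24-3 had 59.2 and 349 (2.12), and RT1-M3-1, a non-classical heavy chain, had 73.7 and 212 (1.09). RT1-A had 12.0 in saline, below the floor, and 125 in 3-NP, so it was at least 5.39-fold higher. Hfe, a class I-like protein of iron uptake control, was the one lower gene, with 65.0 and 36.0 (-1.29). As deposited Hfe was not past 2-fold, and it was not measured with the filter at the 60th percentile. The neonatal Fc receptor gene Fcgrt was at -0.65. Hfe and Fcgrt were the 2 measured genes of this list below the median gene. The rest lay above it but short of 2-fold relative to it. They were RT1-S3 at 0.70 (461 and 1014), RT1-CE16 at 0.80 and RT1-T24-4 at 0.40. The other RT1-S3 probe sets were at 0.66 to 0.71.

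The general chaperones and peptidases of class I assembly did not share these ratios. Of 10 measured genes 0 were at least 2-fold higher or lower, and their median was -0.12. Calreticulin (Calr) was at 0.20, calnexin (Canx) at -0.24 and the disulphide isomerase Pdia3, a partner of tapasin, at -0.08. Erap1, the peptidase that trims peptides inside the endoplasmic reticulum, was at 0.03. Another Erap1 probe set was at 0.49, and a further one was below the floor in both arrays. The measured gene furthest from 0 was Ide, a cytosolic peptidase, at -0.71, but its other probe sets were at 0.48 and -0.49. By their brightest probe sets the 10 measured genes ran from -0.71 to 0.20, all below the lowest of the 9 class I genes.

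Genes that act upstream of class I transcription were in part higher at day 1. Of 14 measured genes, 6 were at least 2-fold higher and 0 lower, with a median of 0.90; Jak2, Irf9 and Socs3 among the 6 passed the filter through the 3-NP array alone, which leaves 3 of 11. Irf1, a transcription factor induced by interferon-gamma that binds the ISRE core, had 99.1 after saline and 791 after 3-NP (relative log2 ratio 2.56). Stat2 and Irf9, which take part in a complex on that element, had 72.5 and 560 (2.51) and 44.0 and 169 (1.499). The other Stat2 probe set was at 1.94.

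Irf7, an amplifier of type I interferon production, had 74.6 and 1112 (3.46), the highest ratio in this list outside the bound of Socs3. The kinase gene Jak2 had 37.7 and 175 (1.77). Socs3, a feedback inhibitor of cytokine signalling, was below the floor in saline at 4.09 and had 220 in 3-NP, so it was at least 9.49-fold higher. The receptor chain gene Ifngr2 was at 0.98. Nlrc5, the class I transactivator, had no probe set naming only that gene and was not analysed here.

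Genes for ubiquitin-like modifiers and for their conjugation or removal, induced together with the immunoproteasome, were few on the day 1 array. Of the list's 3 genes on the array 2 were measured, and both were at least 2-fold higher, Usp18 having passed the filter through the 3-NP array alone. Usp18, which removes the modifier Isg15 from proteins, had 24.96 after saline and 488 after 3-NP (3.85). Ube2l6, the conjugating enzyme for Isg15, had 48.3 and 240 (1.87). Ubd, which encodes the modifier FAT10, had 2.56 and 50.9 and stayed below the filter.

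Immune cells carry these genes at high levels, so markers of other cell types were read on the same day 1 arrays. Of 13 cytotoxic T and NK cell markers on the array, 12 were below the filter and 10 were below the floor in both arrays, including Cd8a, Cd8b, Cd3d, Prf1 and Gzmb. The one measured, Cd3g, had 56.1 after saline and 38.6 after 3-NP (-0.98). The single B cell marker on the array was below the floor in both. Of 14 monocyte, macrophage and dendritic cell markers on the array, 4 were below the filter. Itgam, Aif1 and Ptprc among them were below the floor in both arrays. Of the 10 measured markers 2 were at least 2-fold higher, Lgals3 at 2.47 (97.9 and 736) and Cd14 at 1.54 (44.9 and 177). Csf1r was at -0.06, and the lowest was Cd83 at -0.37. Cd14 and Cd68 passed the filter through the 3-NP array alone, which leaves 1 of 8 higher. The median of that list was 0.28, and its summed signal was 1984 after saline and 3742 after 3-NP, of which Lyz2 gave 1183 and 1876. Summed signals of the marker lists are as deposited and not centred. The sum over the whole day 1 array was 2.11e+06 after saline and 2.91e+06 after 3-NP.

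Of 5 measured endothelial markers 2 were at least 2-fold higher, Kdr at 1.61 and Plvap at least 2.93-fold, while Vwf was at 0.58, Emcn at -0.16 and Cldn5 at -0.77. Plvap passed the filter through the 3-NP array alone, and 1 marker was higher with the floor at the 40th percentile or the filter at the 60th. The summed endothelial signal was 632 and 984. The 2 measured neutrophil markers were S100a8 at -0.65 and S100a9 at 0.34. Fibrocyte markers were lower, 5 of 8 being past 2-fold, with a median of -1.07 and a summed signal of 14101 after saline and 8157 after 3-NP. Of 5 measured strial and melanocyte markers, 4 were at least 2-fold lower, with a summed signal of 2489 and 1223. As deposited, 3 of the fibrocyte and 2 of the strial and melanocyte markers were at least 2-fold lower, and with a pseudocount of 16 in place of the floor 3 of the fibrocyte markers were. The part of these cell type differences in the class I ratios was not tested.

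**Figure D4:**
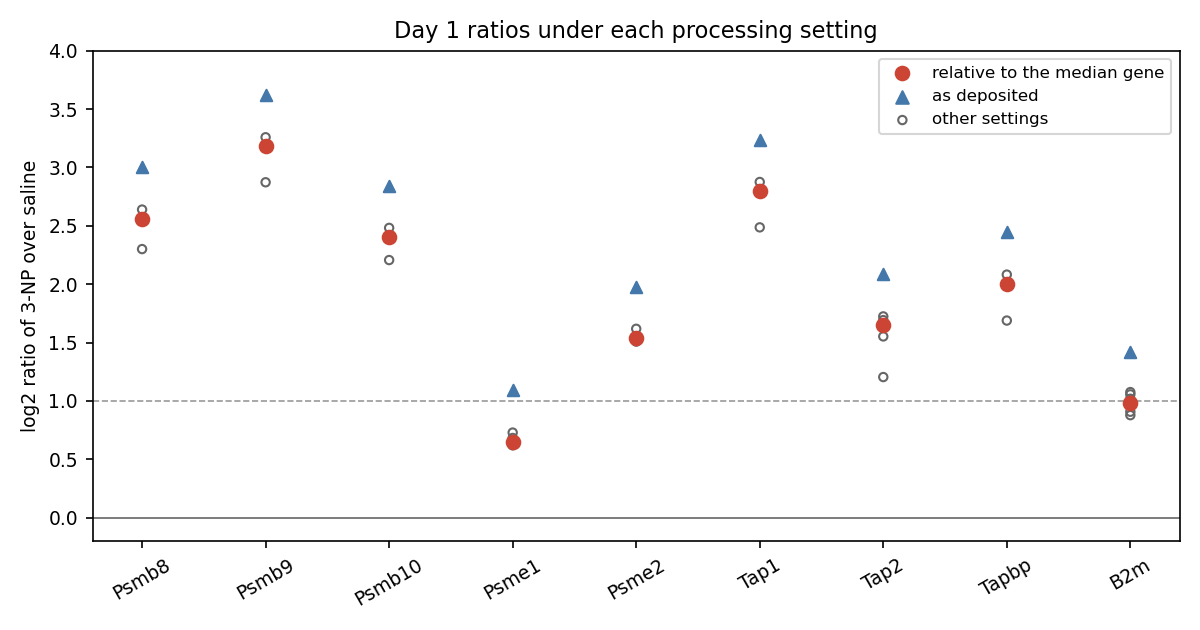
Day 1 log2 ratio of 3-NP over saline (y axis) of each of the 9 class I genes (x axis), with the value relative to the median gene in red, the value as deposited as a blue triangle, the 9 other settings as open circles and a dashed line at 2-fold. B2m lies on both sides of the line, from 0.88 to 1.42, and Psme1 passes it under 1 setting, while the other genes stay above it.

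At day 3 the array held only RT1-A2 and Psme1 from this group, on other probe sets than at day 1, and both were dim. RT1-A2 had 19.3 after saline and 23.0 after 3-NP, a 1.11-fold relative difference (log2 ratio 0.15) at rank 1593 of 3974, which is less than the technical spread of 0.47. Psme1 had 9.24 and 10.9, just above the floors and below the filter, with a relative ratio of 0.14. So 0 of the 1 measured gene was at least 2-fold higher or lower, where 9.21% of all measured genes were higher and 8.18% lower. The probe set annotated to both RT1-A3 and RT1-A2 had 7.31 and 5.06, below the floor in both arrays. Whether the inducible subunits and transporters still differed at day 3 was not analysed here.

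Some other genes of the pathway were also measured at day 3. The modifier gene Isg15 had 54.5 after saline and 1845 after 3-NP, a relative log2 ratio of 4.98. Uba7, the activating enzyme for Isg15, had 44.5 and 121 (1.35), with its other probe sets at 2.86 and 1.19, and the ligase gene Herc6 was at 0.76. Irf9 had 77.0 and 280 (1.76), the one gene of 6 measured upstream genes that was at least 2-fold higher, and the median of those 6 was 0.31. Of the proteasome, Psma7 was at 0.56. By their brightest probe sets the 5 measured 19S genes had a median of 0.28 with Psmd7 highest at 0.83. Psmd14 was at 0.28 by its brightest probe set, but its other measured probe sets were at 1.09 (164 and 375), past 2-fold, and 0.59. Psmb5 had 23.3 after saline and 3.06 after 3-NP, below the floor, so it was at least 2.53-fold lower, while its other probe set, below the filter, was at 0.13. With the floor at the 40th percentile the ratio of Psmb5 was -0.79, short of 2-fold. Fcgrt had 29.5 and 14.8 (-1.10, or -0.997 as deposited, just short of 2-fold), and the transport gene Bcap31 was at -0.16.

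Since the day 3 arrays are of another design, the ratios of the days are set side by side without a test. Irf9 was at 1.499 at day 1 and 1.76 at day 3, and Jak2 at 1.77 and 0.72. Psma7 was at 0.75 and 0.56, and the 19S genes Psmd7 and Psmc4 were at 0.41 and 0.83 and at 0.50 and 0.09. Psmb5 was at 0.47 and, as a bound, -1.34. Fcgrt was at -0.65 and -1.10, Bcap31 at -0.10 and -0.16, Sec61a1 at -0.14 and -0.15, and Ifnar1 at -0.01 and 0.32. Cytotoxic T and NK cell markers were again dim, with 0 of 4 measured and 3 below the floor in both arrays, and the 2 measured macrophage markers, Mrc1 (-1.08) and Cd163 (-1.07), were both at least 2-fold lower relative to the median gene. As deposited neither was, at -0.98 and -0.97, and the other Cd163 probe set, below the filter, was at -0.55.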

How the data were processed

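From 6 µg of total RNA, biotin-labelled cRNA was made for Affymetrix hybridisation, per the labels' protocols. The authors deposited linear MAS5 signal intensities, per the submitters' processing notes (scaling target not given in the sources used). The day 1 design had 15866 probe sets outside the controls, of which 12783 named 1 gene, 312 several and 2771 none; the day 3 design had 15276, with 7564, 100 and 7612. Names came from the platform annotation, updated to RefSeq genes of GRCr8. Each gene was represented by its brightest measured probe set (mean of both log2 signals), and probe sets with several genes entered no gene. Genes of the pathway lists were named by a rule: every gene at least 2-fold apart, otherwise the one furthest from 0, plus the standard subunits, Irf1 and Nlrc5; other genes named beyond it were chosen after their values were seen. The members and lists were chosen with earlier results of these data known. The 10 other settings covered scaling, floor, pseudocount, filter and probe set choice, and the code was tested on simulated data. With 1 array per group, precision is limited by the number of arrays. Python 3.11.15, pandas 2.3.3, numpy 2.4.6, scipy 1.17.1 and statsmodels 0.14.6 were used. Proteins of the subunits were not compared here.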

Additional observations from a re-analysis of the deposited data

Results flagged for a closer look

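Psmb5, a standard catalytic subunit of the proteasome, lay on opposite sides of the median gene on the different days, with a relative log2 ratio of 0.47 at day 1 and -1.34 at day 3. The day 3 value is a bound, since the 3-NP signal of 3.06 was below the floor, and the other day 3 probe set, below the filter, was at 0.13. With the floor at the 40th percentile the day 3 value was -0.79. The probe sets and array designs differ between the days, and the difference was not tested.

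The probe set annotated to both RT1-A3 and RT1-A2 entered no gene, yet at day 1 it had a signal in 3-NP above that in saline, with a relative log2 ratio of 1.41.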

How the results depend on the processing

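Under the 10 other settings at day 1, the count of class I genes at least 2-fold higher stayed between 7 and 9 of 9, and the count lower stayed at 0. The median of the 9 genes was 2.01 and became 2.44 as deposited, without centring, and 1.69 with a pseudocount of 16 in place of the floor. Over all settings the ratio of Tap1 ran from 2.49 to 3.24, Tap2 from 1.204 to 2.09, Tapbp from 1.69 to 2.44, Psmb8 from 2.30 to 3.00, Psmb9 from 2.87 to 3.62, Psmb10 from 2.21 to 2.84 and Psme2 from 1.51 to 1.98. At day 3, RT1-A2 ran from 0.07 to 0.25 and had no value with the filter at the 60th percentile. Over all genes, 507 were higher and 423 lower at day 1, against 1169 and 171 as deposited, and 366 and 325 at day 3, against 155 and 148 with a pseudocount of 16 in place of the floor. No paired analysis was possible because each group had 1 array, and leaving out an array would leave a group empty. At day 3, signals of the class I genes lay near the floor, which limits any difference that could be seen.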

Other observations

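Tap2, Psmb8, Tap1 and Psmb9 follow one another on chromosome 20 in RefSeq's GRCr8 annotation, between the class II genes RT1-DOb and RT1-DMb, so 4 of the class I processing genes are direct neighbours. RT1-DMb, which helps to load class II molecules and is next to Psmb9, had 52.2 after saline and 99.7 after 3-NP at day 1, a relative log2 ratio of 0.50. Of the 13 protein-coding genes that flank the class I genes and are not among them, 7 were on the day 1 array and 4 were measured, with 1 at least 2-fold higher and 1 lower. Among all measured genes of day 1, 7.76% were higher and 6.47% lower. Beside Psmb10 on chromosome 19, Lcat, a cholesterol-esterifying enzyme of plasma, had 664 after saline and 157 after 3-NP, a relative log2 ratio of -2.52. On the other side of Psmb10, the protease gene Ctrl was below the floor in saline at 5.32 and had 61.1 in 3-NP, a bound of 1.39. Ctrl passed the filter through the 3-NP array alone, where the filter lay at 60.7. Next to Tapbp, Ralgdsl2 had 92.0 and 93.6, a ratio of -0.41.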
